A study of Homo sapiens with 26 samples.

Results

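The comparison described here set MDA-MB-468 cells given beads coated with JAG1-Fc against the same cells given beads coated with Fc alone. JAG1 is a Notch ligand, and in JAG1-Fc it is joined to the Fc part of an antibody. Fc beads are the matched control without ligand. The arrays were chosen by their treatment label within the agonism experiment, J1-B for JAG1-Fc beads and Fc-B for Fc beads. This gave 3 arrays in each group, 6 of the 26 arrays of the series. MDA-MB-468 is a human line long established from a breast cancer, triple-negative and basal in type, and no other line was used.

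All cells of both groups had first been kept in 5 µM DAPT for 16 h. DAPT inhibits gamma-secretase, the protease that releases the active part of a Notch receptor. DAPT was then washed out, cells were left in plain medium for 2 h, and the beads were added. The arrays are labelled as harvested 24 h after that treatment. Further pairs of groups from the same experiment are used beside this one. One pair had the same DAPT period and washout, followed by the NOTCH3 antibody A13 or a control IgG, both at 20 µg/ml. The other pair also had a first period of 16 h and a 2 h washout. Its groups had 5 µM DAPT in both periods, called continued DAPT below, or 0.05% DMSO with no DAPT. A new addition at 22 h is given for both. A separate antagonism experiment compared 5 µM DAPT with 0.05% DMSO, both with 10 µg/ml control IgG for 24 h and without a washout. The sources used here do not give the amount of JAG1 on the beads, so its dose cannot be set against that of A13.

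Notch receptors are activated when a ligand on a neighbouring surface pulls on them. ADAM proteases and then gamma-secretase cut the receptor, and the released intracellular domain enters the nucleus. There it joins the DNA-binding protein RBPJ and MAML coactivators and switches on genes such as the HES and HEY repressors and the feedback inhibitor NRARP. Ligand that is not held on a surface activates poorly, which is why ligands are often fixed to beads or plates. In the mammary gland, Notch signalling is known for its part in the choice between basal and luminal cell fates.

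RBPJ binds DNA with the core TGGGAA, often within GTGGGAA. RefSeq promoter sequences (GRCh38.p14) are shown for 4 genes described below. They are the targets HES1 and HES4, the feedback gene NRARP, and OLFM4, the gene that rose most. Each line gives the 250 bases before the annotated start, 5′ to 3′ on the strand of the gene, and capitals mark every TGGGAA on that strand or its complement. HES1 lies at chr3:194135898-194136147 on the plus strand, HES4 at chr1:1000098-1000347 on the minus strand, NRARP at chr9:137302272-137302521 on the minus strand, and OLFM4 at chr13:53028563-53028812 on the plus strand.
HES1: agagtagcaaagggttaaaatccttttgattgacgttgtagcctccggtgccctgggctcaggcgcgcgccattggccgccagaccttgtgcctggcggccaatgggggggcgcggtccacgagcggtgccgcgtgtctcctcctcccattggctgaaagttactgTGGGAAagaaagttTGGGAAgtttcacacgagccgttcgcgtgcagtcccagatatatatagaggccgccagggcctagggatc
HES4: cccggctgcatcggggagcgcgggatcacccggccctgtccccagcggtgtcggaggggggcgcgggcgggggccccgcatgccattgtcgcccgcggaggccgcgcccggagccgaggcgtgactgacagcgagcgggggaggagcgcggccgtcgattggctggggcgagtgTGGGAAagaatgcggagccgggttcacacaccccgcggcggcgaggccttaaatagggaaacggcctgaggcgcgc
NRARP: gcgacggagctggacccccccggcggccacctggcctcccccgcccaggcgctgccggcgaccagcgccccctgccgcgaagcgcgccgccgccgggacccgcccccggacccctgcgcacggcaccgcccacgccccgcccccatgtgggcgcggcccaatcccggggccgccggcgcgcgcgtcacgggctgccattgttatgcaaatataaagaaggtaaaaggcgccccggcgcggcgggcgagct
OLFM4: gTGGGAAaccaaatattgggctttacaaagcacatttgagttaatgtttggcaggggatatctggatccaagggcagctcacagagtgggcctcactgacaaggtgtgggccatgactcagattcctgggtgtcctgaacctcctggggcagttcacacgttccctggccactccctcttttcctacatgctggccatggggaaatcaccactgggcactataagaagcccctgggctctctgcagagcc
HES1 held 2 matches, 84 and 70 bases before the start, the first of them within GTGGGAA. HES4 held 1, 76 bases before the start and also within GTGGGAA. OLFM4 held 1, at the far end of the stretch, and its GTGGGAA began 250 bases before the start. NRARP held none in this stretch, which says only that these letters are not there.

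JAG1-Fc beads changed the expression of 1604 of 19775 genes, 8.11% of those tested, at an adjusted p under 0.05. Of these, 587 were higher (2.97%) and 1017 were lower (5.14%) than with Fc beads. Most changes were small: 7 genes rose and 18 fell at least 2-fold. The median log2 change of all genes was 0.01, with a standard error whose median over genes was 0.081. In 2337 genes (11.8%) all 3 JAG1-Fc bead arrays lay above all 3 Fc bead arrays, and in 2752 (13.9%) they all lay below. The count of passing genes fell to 897 without Fc bead array 2 and to 1059 without JAG1-Fc bead array 1. It was 907 when only these 6 arrays were fitted.

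The arrays of a group were close to each other. Taken over all genes, log2 differences between 2 arrays had an SD of 0.148 to 0.169 among JAG1-Fc bead arrays and 0.148 to 0.183 among Fc bead arrays, and 0.191 to 0.239 between the groups. The line's markers were checked on the 6 arrays. EGFR, which this line is known to overexpress, lay between 14.04 and 14.21 in log2 intensity, and the epithelial adhesion molecule EPCAM between 13.6 and 13.7. The progesterone receptor gene PGR lay below the lower quartile of all genes on each of the 6 arrays. ESR1 and ERBB2, also listed beforehand as low in this line, lay at 7.89 to 8.26 and 9.54 to 9.92. Both were below the median of all genes on 0 of the 6 arrays. Markers of leukocytes, stroma, endothelium, liver and blood were read as signs of other cells. Of these 13 genes 0 passed, 8 lay below the median of all genes on all 6 arrays, and 3 below the lower quartile. CD14, COL1A1, PECAM1 and HBB lay below the median on 0 of the 6 arrays, with CD14 highest at 9.8 to 10.13. The mean log2 level of the 13 genes was 7.19 to 7.27 with JAG1-Fc beads and 7.16 to 7.30 with Fc beads. RMA values carry no detection calls, so no marker can be called absent.

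Within the Notch pathway itself, NRARP and the ligand gene JAG1 moved clearly and most other members did not. NRARP, an inhibitor that binds the active receptor domain, was at 9.45, 9.36 and 9.42 in log2 intensity with JAG1-Fc beads and at 8.50, 8.41 and 8.30 with Fc beads. The groups did not overlap, and the rise was 1.01 ± 0.07 on the log2 scale (SE, n = 3 against 3, limma adjusted p = 4.07e-08), or 2.01-fold. JAG1 messenger RNA was at 11.02, 10.97 and 11.07 against 10.39, 10.29 and 10.43. It rose by 0.65 ± 0.07 in log2 (adjusted p = 1.44e-05), again without overlap. The gene has 6 probe sets, whose log2 changes ran from 0.04 to 0.74.

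HES1, a repressor of transcription and the best known Notch target, changed little. Its log2 intensity was 11.03, 10.84 and 11.02 with JAG1-Fc beads and 10.70, 10.74 and 10.78 with Fc beads. The rise of 0.22 ± 0.06 in log2 passed narrowly (limma adjusted p = 0.0394). The call was lost in 8 of 13 alternative settings, among them the fit of these 6 arrays alone and the fits without each array but JAG1-Fc bead array 2, and the sign turned in 1. HES1 has 3 probe sets with log2 changes from -0.08 to 0.28, and the highest-level probe set not ending in _x_at or _s_at gave -0.08. Its relative HES4 was at 11.60, 11.46 and 11.74 against 11.36, 11.55 and 11.40. Those groups overlapped, and the change of 0.16 ± 0.08 did not pass (adjusted p = 0.267).

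NOTCH3, the receptor to which A13 binds and itself a known Notch target, was at 12.51, 12.32 and 12.50 in log2 intensity with JAG1-Fc beads and at 12.03, 12.20 and 11.72 with Fc beads. All 3 values were higher, but the Fc bead arrays spread widely and the change of 0.46 ± 0.14 missed the threshold (adjusted p = 0.0525). NOTCH1 lay at 8.62, 8.58 and 8.79 against 8.47, 8.46 and 8.30, a log2 change of 0.26 (adjusted p = 0.0985). None of the 4 receptor genes passed. Of the 5 ligand genes JAG1 alone passed, and JAG2 changed by 0.20 in log2 (adjusted p = 0.0858).

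Of the 11 canonical targets measured 2 rose (18.2% against 2.97% of all genes), NRARP and HES1, and 0 fell. With each array centred on its median NRARP alone rose. Their median log2 change was 0.10, against 0.01 for all genes tested. HEY1, HEY2 and HES2 each changed by 0.10 in log2 and HEYL by less than 0.01, and none of these passed. With A13 against control IgG, 7 of the same 11 rose, against 5.68% of all genes. Among the genes that process and carry the signal, 0 or 1 gene of each list passed in a direction (of all genes, 2.97% higher and 5.14% lower). None of the 6 glycosyltransferase genes of the receptors passed. The gamma-secretase subunit gene PSENEN fell by 0.27 in log2, 1 of 8 cleavage genes (12.5%), and lost its call in 5 of 13 alternative settings. DTX4, a ubiquitin ligase of the Deltex family, fell by 0.32, 1 of 13 trafficking and turnover genes (7.69%). In the nuclear complex, 15 genes were measured, of which 1 rose and 1 fell (6.67% each): the coactivator MAML2 rose by 0.34 and the corepressor TLE2 fell by 0.32.

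**Figure D1:**
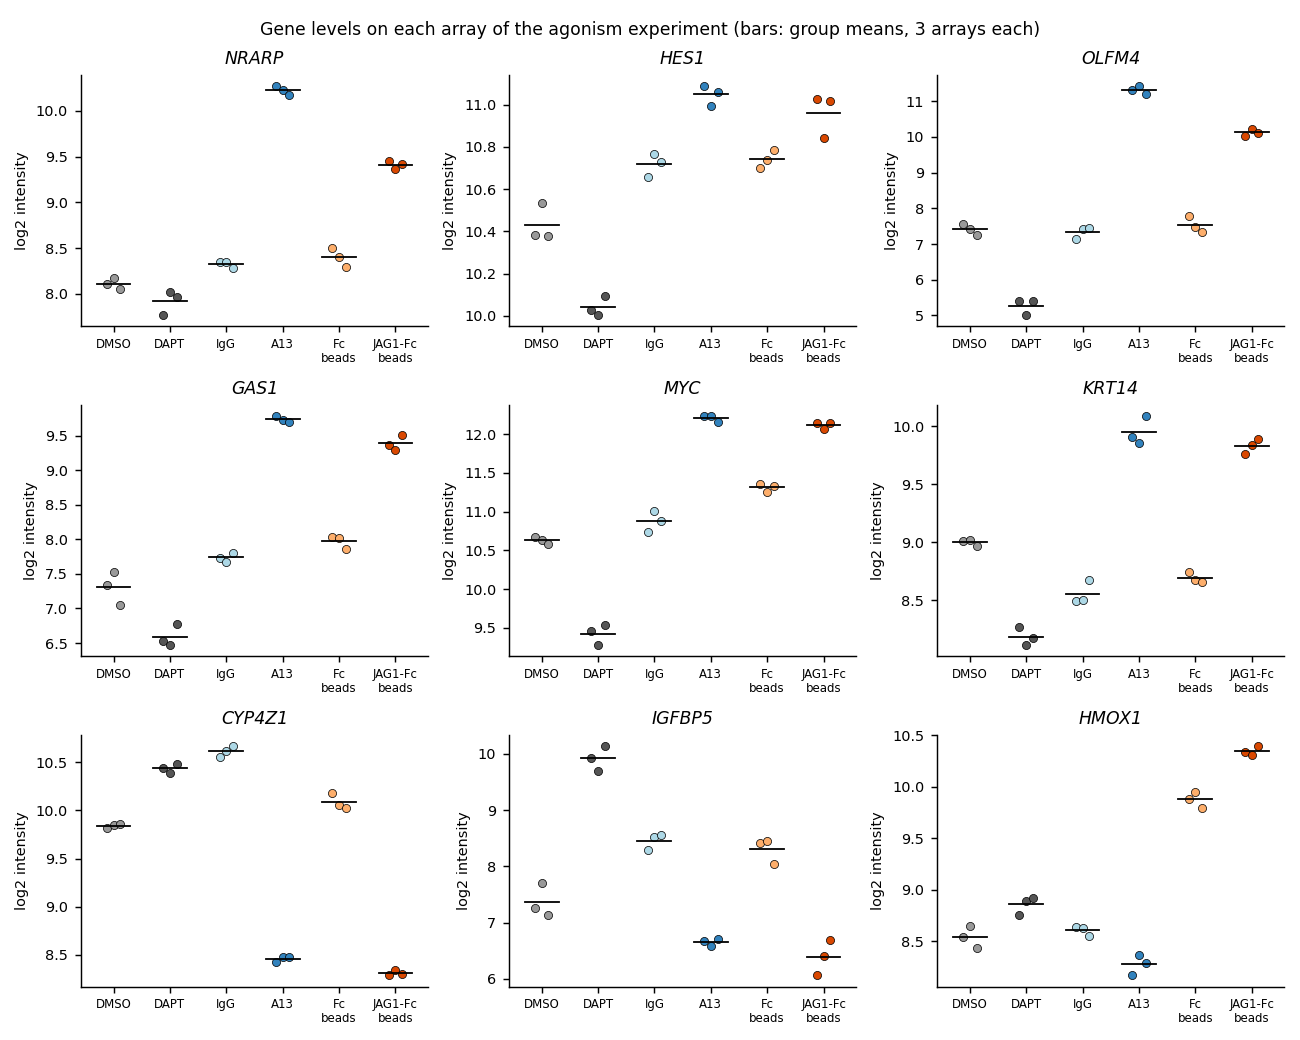
Log2 intensity (vertical axes, each panel with its own scale not starting at 0) of 9 genes on the 18 agonism arrays, 1 point an array and a bar at each group mean. With JAG1-Fc beads, NRARP, OLFM4 and GAS1 lie above Fc beads and below A13, CYP4Z1 and IGFBP5 lie below Fc beads, and HMOX1 is high with both kinds of beads.

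OLFM4, a secreted glycoprotein known as a marker of intestinal stem cells, rose more than any other gene. Its log2 intensity was 10.04, 10.23 and 10.12 with JAG1-Fc beads against 7.79, 7.47 and 7.35 with Fc beads. That was a log2 change of 2.59 ± 0.12, or 6.03-fold (limma adjusted p = 4.57e-10). It was at 5.42, 5.02 and 5.40 under continued DAPT, so the Fc bead arrays, without DAPT after the washout, already lay above that level.

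GAS1, a membrane-anchored coreceptor of hedgehog proteins, was at 9.36, 9.29 and 9.51 in log2 intensity against 8.03, 8.02 and 7.86, a rise of 1.42 ± 0.10. The groups were more than 1 log2 unit apart, but only 1 of its 3 probe sets passed, and the highest-level probe set not ending in _x_at or _s_at gave -0.08. FAM43A was at 10.20, 10.08 and 10.41 against 9.18, 8.98 and 9.04 and rose by 1.16 ± 0.12 in log2, or 0.65 with its 2 probe sets averaged. ALDH1A1, a retinaldehyde dehydrogenase, was at 9.32, 9.48 and 9.47 against 8.61, 8.44 and 8.40. Its rise was 0.94 ± 0.08. The group arrays of these genes did not overlap, which the choice of the largest changes required.

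MYC, the growth-promoting transcription factor, was at 12.15, 12.07 and 12.14 in log2 intensity with JAG1-Fc beads and at 11.36, 11.26 and 11.33 with Fc beads. It rose by 0.80 ± 0.07 in log2 (limma adjusted p = 9.92e-07), or 1.75-fold. Fc beads alone had MYC 0.44 ± 0.07 above control IgG (adjusted p = 0.0026), and those 2 comparisons share the Fc bead arrays. Among the other genes of the MYC network, the antagonist gene MXI1 rose by 0.22. In all, 2 of 11 members rose (18.2% against 2.97% of all genes). MXI1 lost its call in 7 of 13 alternative settings.

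DSC3, a cadherin of desmosomes, was at 8.76, 8.79 and 8.85 against 8.11, 7.87 and 7.86 in log2 intensity. KIT, a receptor tyrosine kinase of luminal progenitors, was at 8.59, 8.85 and 8.67 against 7.99, 7.88 and 7.78. The tubulin gene TUBB2B was at 5.99, 6.39 and 6.77 against 5.51, 5.67 and 4.89, the widest spread among the largest rises. CASP4LP, annotated as a caspase pseudogene, was at 8.29, 8.56 and 9.01 against 7.75, 7.57 and 7.65. Its rise of 0.96 ± 0.17 came from 1 of its 2 probe sets, and the other gave -0.01. NHS and MYEOV rose by 0.89 and 0.88. With all probe sets of a gene averaged, CASP4LP gave 0.48 and NHS 0.57.

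**Figure D2:**
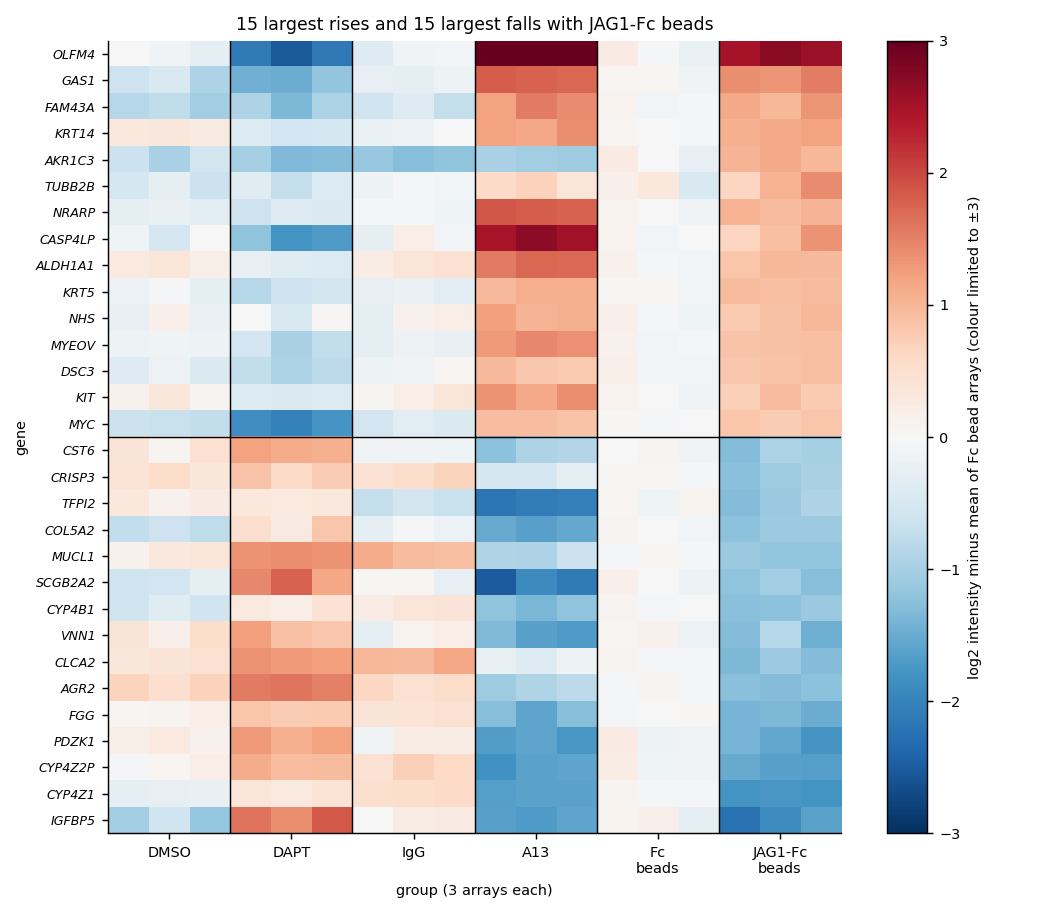
The 15 largest rises (upper rows) and 15 largest falls (lower rows) with JAG1-Fc beads, with 1 column an agonism array. Colour gives log2 intensity minus the mean of the 3 Fc bead arrays, limited to ±3. Most rows have the same colour with A13 and with JAG1-Fc beads, and AKR1C3 is a row where A13 lies on the other side of the Fc beads.

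Keratins moved in 2 directions. KRT14 and KRT5 form the keratin pair of basal epithelial cells. KRT14 was at 9.76, 9.83 and 9.88 in log2 intensity with JAG1-Fc beads against 8.74, 8.68 and 8.65, a rise of 1.14 ± 0.07. KRT5 was at 13.66, 13.63 and 13.66 against 12.75, 12.77 and 12.64, a rise of 0.93 ± 0.08. KRT16, a keratin of activated epidermis, rose by 0.63. Against these, the luminal keratins KRT8, KRT7 and KRT18 fell by 0.41, 0.41 and 0.25. Basal markers did not move together. Of 14 measured, 3 rose and 3 fell (21.4% each, against 2.97% and 5.14% of all genes). The median log2 change was 0.01. The basal genes that fell were ITGB4, a hemidesmosome integrin (by 0.58), KRT15 (by 0.39) and CDH3 (by 0.28). CDH3 lost its call in 3 of 13 alternative settings. ITGB4 has 5 probe sets, of which 1 passed, and the highest-level one not ending in _x_at or _s_at gave -0.12.

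Of 30 luminal markers measured 15 fell, 50% against 5.14% of all genes, 1 rose (KIT) and 14 did not pass. The median log2 change was -0.25. AGR2, a disulfide isomerase of secretory epithelium, was at 9.53, 9.48 and 9.55 in log2 intensity with JAG1-Fc beads against 10.76, 10.87 and 10.73 with Fc beads. It fell by 1.27 ± 0.07 (limma adjusted p = 1.01e-08), and by 0.75 when all its probe sets were averaged. The mammaglobin gene SCGB2A2 was at 7.34, 7.50 and 7.25 against 8.68, 8.56 and 8.38, lower by 1.17 ± 0.15. LCN2, an iron-carrier binding protein, was at 11.30, 11.39 and 11.39 against 12.26, 12.33 and 12.28. The luminal transcription factor genes FOXA1 and SPDEF fell by 0.50 and 0.52, whereas GATA3, at -0.08, did not pass. 

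Among the 15 largest falls, IGFBP5 came first. This gene, whose protein binds insulin-like growth factors, was at 6.07, 6.41 and 6.69 in log2 intensity against 8.41, 8.45 and 8.04. It fell by 1.91 ± 0.16, and was 3.76-fold lower. IGFBP5 has 6 probe sets with log2 changes from -1.91 to -0.06, and their mean gave -0.53, which passed. CYP4Z1, a cytochrome P450 known from breast tissue, was at 8.29, 8.34 and 8.30 against 10.18, 10.05 and 10.03 and was 3.42-fold lower (fell by 1.78 ± 0.05, adjusted p = 6.23e-13). CYP4Z2P, a near-identical copy, was 3.02-fold lower, and whether its probes also detect CYP4Z1 was not tested. CYP4B1, another gene of the CYP4 family, was at 8.85, 8.87 and 9.01 against 10.18, 10.05 and 10.10.

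PDZK1, a scaffold of membrane transporters, was at 5.88, 5.70 and 5.50 in log2 intensity against 7.52, 7.12 and 7.16. FGG, the gamma chain of fibrinogen, was at 7.45, 7.48 and 7.36 against 8.79, 8.86 and 8.86. Both groups of arrays were well apart for each gene, with falls of 1.57 and 1.41 in log2. CLCA2, a modulator of chloride channels, was at 7.65, 7.90 and 7.68 against 9.07, 8.94 and 8.96. MUCL1, a small mucin of breast epithelium, was at 9.49, 9.43 and 9.44 against 10.59, 10.68 and 10.57. For these last genes the control beads already lay lower than control IgG: by -1.05 in log2 for CLCA2, -0.98 for MUCL1, -0.54 for AGR2 and -0.53 for CYP4Z1. What part the beads themselves had in the further fall was not tested. VNN1, COL5A2, TFPI2, CRISP3 and CST6, the other genes among the 15 largest falls, changed by -1.21 to -1.08.

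Of 23 MYC target and ribosome biogenesis genes 11 rose, 0 fell and 12 did not pass. The share that rose was 47.8% against 2.97% of all genes, and the median log2 change was 0.23 against 0.01 for all genes. The nucleolar genes WDR43, LYAR and NOC3L rose by 0.45, 0.41 and 0.40, and the RNA helicase gene DDX21 by 0.34. Averaged over the list, the log2 level was 10.75, 10.77 and 10.82 on the JAG1-Fc bead arrays and 10.60, 10.53 and 10.48 on the Fc bead arrays. The group arrays did not overlap. Of 18 polyamine and nucleotide synthesis genes 4 rose (22.2%), among them ODC1, the first enzyme of polyamine synthesis, by 0.23. ODC1 lost its call in 8 of 13 alternative settings.

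Of 30 G2/M genes 15 rose (50% against 2.97% of all genes), 0 fell and 15 did not pass, among the latter CCNB1, CDK1 and PLK1. The median log2 change was 0.21. CENPF and CENPE, which act at kinetochores, rose by 0.38 and 0.36. KIF23, a motor of cytokinesis, rose by 0.38, with 0.12 from its probe set not ending in _x_at or _s_at, and the spindle gene ASPM by 0.37. The mean log2 level of the list was 11.27, 11.32 and 11.39 with JAG1-Fc beads and 11.14, 11.11 and 11.08 with Fc beads. Of 31 G1/S genes 2 rose (6.45%, E2F2 and MCM10) and 1 fell (3.23%, CCNE1, against 5.14% of all genes), with a median of 0.05. MCM10 lost its call in 9 of 13 alternative settings and CCNE1 in 7. Among 12 G1 regulators 2 rose (16.7%) and 1 fell (8.33%): the kinase gene CDK6 rose by 0.39, cyclin D1 (CCND1) by 0.32, and the CDK inhibitor gene CDKN1A fell by 0.38. CCND1 lost its call in 4 settings. A bulk array cannot tell more dividing cells from more RNA per cell.

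**Figure D3:**
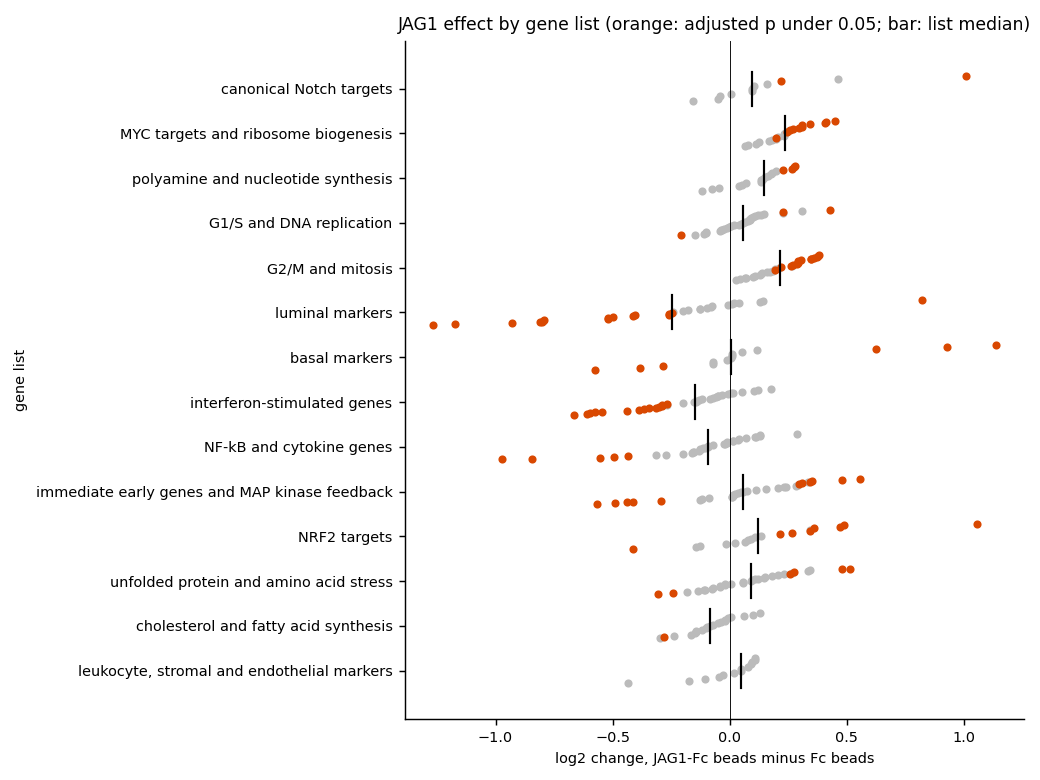
Log2 change with JAG1-Fc beads (horizontal axis) of each measured member of 14 gene lists (rows), with passing members in orange and a bar at the list median. The ribosome and G2/M lists lie to the right of 0 with medians of 0.23 and 0.21, the luminal and interferon lists reach to the left with medians of -0.25 and -0.15, and leukocyte, stromal and endothelial markers hold no passing gene.

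Of 34 interferon-stimulated genes 14 fell (41.2% against 5.14% of all genes), 0 rose and 20 did not pass, and the median log2 change was -0.15. PSMB9, an immunoproteasome subunit, was at 10.26, 10.39 and 10.26 in log2 intensity against 10.93, 11.02 and 10.96. GBP1, a guanylate-binding protein, fell by 0.61, IFI44 by 0.60 and the virus-tethering protein gene BST2 by 0.58. IFI44 had a second probe set, which gave 0.06. IRF1 at 0.10 and IFIT2 at 0.02 did not pass.

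Of 33 NF-kB and cytokine genes 5 fell (15.2% against 5.14% of all genes) and 0 rose. NFKBIZ, a nuclear regulator of NF-kB, was at 9.65, 10.14 and 9.60 in log2 intensity against 10.80, 10.75 and 10.77. CXCL8, the neutrophil attractant interleukin-8, was at 8.22, 8.31 and 8.37 against 9.00, 8.95 and 9.49 and fell by 0.84 ± 0.15. In the control IgG arrays CXCL8 was at 8.19, 7.90 and 8.26, close to the JAG1-Fc bead arrays. Fc beads against control IgG gave 1.03 ± 0.15 for this gene, and 8 of the 33 genes rose in that comparison, in which 1.64% of all genes did. A13 gave -0.14 ± 0.15 (adjusted p = 0.664). The part of the bead effect in the fall of CXCL8 was not tested.

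Of 31 immediate early and MAP kinase feedback genes 6 rose (19.4% against 2.97% of all genes) and 5 fell (16.1% against 5.14%). SPRY2, a feedback inhibitor of receptor tyrosine kinases, rose by 0.56, and IER3 and IER5 rose by 0.48 and 0.35. The phosphatase genes DUSP2, DUSP6 and DUSP4, which switch off MAP kinases, fell by 0.57, 0.49 and 0.44. Fc beads against control IgG had 14 of the 31 genes higher, against 1.64% of all genes.

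Of 18 targets of NRF2, the oxidative stress regulator, 7 rose (38.9% against 2.97% of all genes), 1 fell (5.56% against 5.14%) and 10 did not pass, with a median log2 change of 0.12. The aldo-keto reductase gene AKR1C3, whose enzyme acts on steroids and prostaglandins, was at 9.33, 9.44 and 9.30 in log2 intensity against 8.54, 8.30 and 8.06. HMOX1, heme oxygenase, was at 10.34, 10.30 and 10.39 against 9.88, 9.95 and 9.80. The AKR1C2 gene rose by 0.49 and AKR1C1 by 0.36. These paralogs are closely alike in sequence, their probe sets end in _x_at, and the highest-level AKR1C2 probe set without that ending gave -0.02, while AKR1C1 gave 0.14. AKR1B10 fell by 0.41. The control beads themselves had 11 of the 18 genes above control IgG, against 1.64% of all genes: HMOX1 by 1.27 ± 0.07, AKR1C3 by 1.21 ± 0.12 and AKR1C2 by 1.04 ± 0.06. What part the beads had in the further rise was not tested.

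Regulators of other signalling pathways changed gene by gene. The shares here are read against 2.97% of all genes higher and 5.14% lower. Among 15 ID, BMP and TGF-beta feedback genes 2 rose (13.3%) and 4 fell (26.7%). ID4, an inhibitor of helix-loop-helix factors, was at 12.79, 12.53 and 12.87 in log2 intensity against 12.08, 11.90 and 12.11. Its relative ID1 was at 8.85, 9.05 and 9.12 against 9.56, 9.52 and 9.46, and the ligand gene BMP2 fell by 0.72. BAMBI and TGFB1, which also fell, each lost the call in 5 of 13 alternative settings, and TGFB1 turned sign in 1. Of 17 Wnt regulators 2 rose (11.8%, FZD7 and AXIN2) and 4 fell (23.5%). DKK1, a secreted Wnt inhibitor, was at 8.49, 8.51 and 8.83 against 9.57, 9.61 and 9.57. WNT5A fell by 0.63, or by 0.30 from its probe set not ending in _x_at or _s_at. The other falls, RNF43 and WNT7B, lost their calls in 7 of 12 and 4 of 13 alternative settings. Of 14 YAP and CCN genes 1 rose and 1 fell (7.14% each): AMOTL2 rose by 0.30 and NT5E, an ectonucleotidase, fell by 0.62. Cholesterol and fatty acid synthesis had 1 fall among 21 genes (4.76%, SREBF1), near the share of all genes. Glycolysis and hypoxia had 2 rises among 29 (6.90%, PFKP and PDK1), and PDK1 lost its call in 9 of 13 alternative settings, AMOTL2 in 7 and PFKP and SREBF1 in 5 each. Among 18 mesenchymal genes TWIST2 rose (5.56%). VIM changed by 0.60 ± 0.19, which did not pass (adjusted p = 0.0669).

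The A13 antibody, which acts on NOTCH3, asked how a ligand compares with a receptor-specific agonist. A13 against control IgG changed 2908 genes (14.7%), 1124 higher (5.68%) and 1784 lower (9.02%). These comparisons share no arrays. Of the genes that rose with JAG1-Fc beads, 433 rose with A13 as well, 73.8% of the 587 and 38.5% of the 1124. Of those that fell, 839 fell with A13, 82.5% of the 1017 and 47% of the 1784. Only 3 genes passed in opposite directions. Across all genes the log2 changes had a correlation of 0.745, a description over genes that are not independent replicates. Of the 1272 genes that passed the same way in both, 969 had the larger log2 change with A13.

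**Figure D4:**
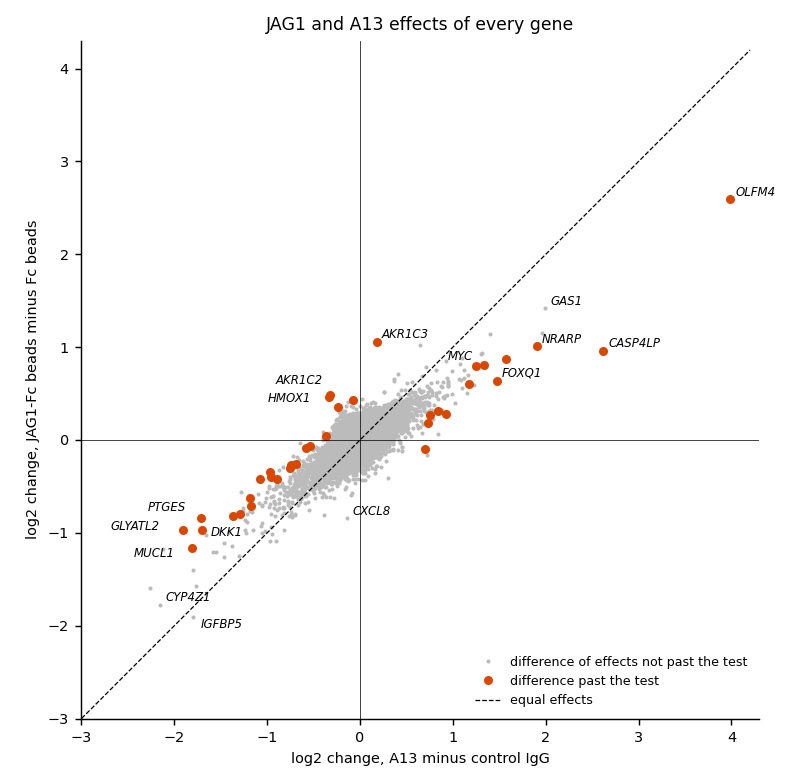
Log2 change with JAG1-Fc beads (vertical axis) against log2 change with A13 (horizontal axis), 1 point a gene, with a dashed line of equal effects. The 36 genes in orange passed the test of the difference, 12 with the larger rise and 17 with the larger fall under A13. NRARP, at 1.01 against 1.90, is one of the larger rises under A13. AKR1C3, at 1.05 against 0.18, lies on the other side of the line.

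The difference of the effects was itself tested, as JAG1-Fc beads minus Fc beads less A13 minus control IgG. It passed for 36 genes (0.182%), 23 with the JAG1 effect higher (0.116%) and 13 with it lower (0.0657%), and 1173 genes had an unadjusted p under 0.05. Of the 36, 12 had the larger rise with A13 and 17 the larger fall with A13. Agonist-induced genes known from earlier results of these data were among them, 4 of the 7 listed. These genes were picked with those results known, so their place here is not independent support. OLFM4 rose by 3.98 ± 0.12 in log2 with A13, where it reached 11.32, 11.43 and 11.22, and the difference was -1.39 ± 0.17 (limma adjusted p = 0.000802). NRARP reached 10.27, 10.23 and 10.18 with A13, and its difference was -0.89 ± 0.10 (adjusted p = 0.000213). MYC reached 12.23, 12.23 and 12.16, hardly above JAG1-Fc beads, but its control IgG arrays lay lower, at 10.74, 11.01 and 10.89. Its difference of -0.53 ± 0.10 passed narrowly (adjusted p = 0.0419) and was not recomputed under the alternatives.

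CASP4LP differed most, by -1.65 ± 0.25, with log2 levels of 10.13, 10.33 and 10.18 under A13, or by -0.78 with both probe sets averaged. FOXQ1, a forkhead transcription factor, rose by 0.64 with JAG1-Fc beads and by 1.47 with A13. Among genes that fell, GLYATL2 changed by -0.97 with JAG1-Fc beads and -1.91 with A13, and PTGES, a prostaglandin E synthase, by -0.85 and -1.71. For GAS1, FAM43A, JAG1 and KRT14 the point estimates were also larger with A13, but the differences of -0.58, -0.80, -0.44 and -0.26 did not pass. IGFBP5 changed by -1.91 and -1.80 with a difference of -0.11 ± 0.22.

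The genes of the AKR1C group and HMOX1 went the other way. AKR1C3 changed by 1.05 ± 0.12 in log2 with JAG1-Fc beads and 0.18 ± 0.12 with A13, a difference of 0.88 ± 0.16 (limma adjusted p = 0.0385). That difference lost its call in 12 of 18 alternative settings, with adjusted p up to 0.106. HMOX1 was at 8.17, 8.37 and 8.29 with A13, below its control IgG arrays, and the difference was 0.80 ± 0.10 (limma adjusted p = 0.000802). It kept its call in all 19 settings. With JAG1-Fc beads both genes stood above Fc beads that already stood above control IgG. The test is of 2 effects over different controls, so a bead effect and a ligand effect on these genes cannot be told apart in it. Without 1 array at a time the count of 36 became 10 (A13 array 2) to 28 (A13 array 3), and it was 8 with the _x_at and _s_at probe sets left out.

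Counts of the gene lists are set side by side here, and the shares of all genes differ between the comparisons: 2.97% rose and 5.14% fell with JAG1-Fc beads, and 5.68% rose and 9.02% fell with A13. Of the 23 ribosome genes 11 rose with JAG1-Fc beads and 18 with A13, and of the 30 luminal markers 15 fell with JAG1-Fc beads and 21 with A13. Of the 34 interferon genes 14 fell with JAG1-Fc beads, and 17 fell and 1 rose with A13. For the 30 G2/M genes the count was the higher one with JAG1-Fc beads, 15 against 9 with A13. NRF2 targets moved apart: 7 of 18 rose and 1 fell with JAG1-Fc beads, and 0 rose and 8 fell with A13. Differences between these list counts were not tested. Gene by gene, the test of the difference passed for 0 of the 30 G2/M, 23 ribosome, 30 luminal and 34 interferon genes. It passed for 5 of the 18 NRF2 targets, each with the JAG1 effect higher, against 0.116% of all genes.

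Inhibition of gamma-secretase moved many of the same genes in the opposite direction. Continued DAPT against DMSO in the agonism experiment changed 4089 genes (20.7%), 2446 higher (12.4%) and 1643 lower (8.31%), with no arrays shared with the bead comparison. Of the genes that rose with JAG1-Fc beads, 203 fell with DAPT, 34.6% of the 587 and 12.4% of the 1643, and 27 rose. Of those that fell, 541 rose with DAPT, 53.2% of the 1017 and 22.1% of the 2446, and 36 fell. All 30 of the largest changes had the opposite sign with DAPT, and 25 passed. IGFBP5 rose by 2.56 ± 0.16 with DAPT, and OLFM4 fell by 2.13 ± 0.12. NRARP did not pass with DAPT (-0.19 ± 0.07, adjusted p = 0.0563).

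In the separate antagonism experiment DAPT changed 70 genes (0.354%), 40 higher (0.202%) and 30 lower (0.152%). Of the 40 that rose, 35 had fallen with JAG1-Fc beads (87.5% of the 40, 3.44% of the 1017) and 0 had risen. Of the 30 that fell, 15 had risen with JAG1-Fc beads (50% of the 30, 2.56% of the 587) and 1 had fallen. Of the 30 largest changes with JAG1-Fc beads, 26 had the opposite sign with DAPT there, and 9 passed in the opposite direction. MYC fell by 1.34 ± 0.10 there, OLFM4 by 1.33 ± 0.16 and HES1 by 0.50 ± 0.07, while AGR2 rose by 1.02 ± 0.07 and CYP4Z1 by 0.91 ± 0.08. In this experiment 0 of the 23 ribosome genes and 0 of the 30 G2/M genes passed, and 2 of the 30 luminal markers rose. The median log2 changes of these lists were -0.25, -0.18 and 0.17. With DAPT in the agonism experiment, 0 of the 23 ribosome genes rose and 12 fell, and 20 of the 30 G2/M genes fell. Of the 30 luminal markers 22 rose and 1 fell there, where 12.4% of all genes rose and 8.31% fell.

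Fc beads against control IgG changed 411 genes (2.08%), 324 higher (1.64%) and 87 lower (0.44%). This comparison shares the Fc bead arrays with the bead comparison, so its values are given only side by side. NRARP differed by 0.08 ± 0.07 in log2 between Fc beads and control IgG, HES1 by 0.02 ± 0.06 and OLFM4 by 0.20 ± 0.12, and none passed. FAM43A was higher by 0.56 ± 0.12 (limma adjusted p = 0.0219), and 10 of 14 YAP and CCN genes and 13 of 31 unfolded protein and amino acid stress genes were higher too. With JAG1-Fc beads, 4 genes of the stress list rose (12.9% against 2.97% of all genes) and 2 fell (6.45% against 5.14%). STC2, a secreted glycoprotein, rose by 0.51 and CTH, an enzyme of cysteine synthesis, by 0.48.

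The RBPJ core occurred in the promoters of genes that moved at about the share of all promoters. Of 35116 RefSeq promoter windows of 300 bases, the first listed for each gene was kept, 27305 in all. Other annotated starts of a gene were not searched. TGGGAA occurred on either strand in 24.3% of the windows kept, and in 22.8% of the 15382 windows of measured genes. Among genes that rose it occurred in 104 of 478 windows (21.8%, 95% Wilson interval 18.3% to 25.7%). Among genes that fell it occurred in 179 of 815 (22%). GTGGGAA, each match of which is also a match to TGGGAA, occurred in 6.28% of all windows and 6.09% of those of measured genes. Of the 478 windows of genes that rose, 25 held it (5.23%). Of 9 canonical targets with a window, 5 held both. Of the 15 largest rises, 11 had a window and 1 held the core, OLFM4. A window this short does not cover distant enhancers, and a match is only a description of the letters.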

How the data were processed

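The series holds 26 Affymetrix HG-U133 Plus 2.0 arrays, 18 of the agonism experiment, with 3 arrays in each of 6 groups. The deposited values are intensities on a linear scale, 1 per probe set and array. The submitters' processing notes name RMA and R 2.10, without roles. RMA makes arrays alike, so a change of most transcripts 1 way would be reduced. The design assumed log2 values, and the intensities were converted to log2 before the same test. Of 54675 probe sets 62 were controls, 41091 had 1 gene symbol and 1801 several. Each of 19775 genes was read from the probe set, of those with 1 gene, whose mean over the 26 arrays was highest, and 10523 genes had more than 1. Gene IDs of 41037 probe sets matched RefSeq (GRCh38.p14, names and promoters only), and 0 symbols changed.

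The fit used limma 3.58.1 under R 4.3.3 (lmFit, contrasts.fit, and eBayes without trend or robust setting), all 18 agonism arrays in 1 fit with 12 residual degrees of freedom, and the antagonism arrays in another. P-values were two-sided and adjusted over all genes by Benjamini-Hochberg, with a threshold of 0.05 on the adjusted p. Low intensity was no reason to leave out a gene. The script was tested on simulated data. Replicate numbers, batches and dates are absent from the labels, which do not call the arrays of a group separate cultures, so p-values cover only the spread between these samples. That spread may be technical. Arrays are numbered in listed order. The number of arrays limits the precision.

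Named genes were the 15 largest passing rises and falls whose arrays did not overlap, every receptor, ligand and canonical target gene, agonist-induced genes of earlier results, up to 4 passing members a direction of each other list, and the 8 largest differences from A13 in each direction. Comparison, members and 30 gene lists were chosen with earlier results of these data known. List counts cover measured members. Promoter windows ran from 250 bases before to 50 after a start, the first listed start of each gene, and 103 of 131 named genes had one. Alternatives varied the arrays fitted, scaling, probe set rule, intensity filter, variance model and promoter motif.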

Additional observations from a re-analysis of the deposited data

Results flagged for a closer look

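The effects of JAG1-Fc beads and A13, each against its own control, differed by the test of the difference itself for 36 genes, and the 8 largest in each direction are given here as JAG1 effect minus A13 effect on the log2 scale. The JAG1 effect was the lower one for CASP4LP (-1.65), OLFM4 (-1.39), NRARP (-0.89), FOXQ1 (-0.83), CXCL2 (-0.79), MYEOV (-0.69), RASSF10 (-0.65) and RHOV (-0.57). All of these but CXCL2 had positive effects of both agonists with the larger one for A13. CXCL2, a neutrophil attractant, changed by -0.09 with JAG1-Fc beads and by 0.70 with A13.

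The JAG1 effect was the higher one for GLYATL2 (0.94), AKR1C3 (0.88), PTGES (0.86), AKR1C2 (0.81), HMOX1 (0.80), DKK1 (0.73), DHRS3 (0.66) and MUCL1 (0.65). GLYATL2, PTGES, DKK1, DHRS3 and MUCL1 fell with both agonists and fell more with A13. AKR1C2 and HMOX1 rose with JAG1-Fc beads and fell with A13, by 0.32 and 0.33. With Fc beads against control IgG, MUCL1 changed by -0.98 on the log2 scale, while AKR1C2, AKR1C3 and HMOX1 were 1.04, 1.21 and 1.27 higher. The part of the beads in these differences was not tested. Several of these differences did not keep their call under the alternatives: it was lost for DKK1 in 16 of 19 settings, including every fit without 1 array, for RASSF10 in 15 of 18, RHOV in 14 of 19, AKR1C3 in 12 of 18, MUCL1 in 10 of 19, CXCL2 in 7 of 18 and MYEOV in 6 of 18.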

How the results depend on the processing

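The count of 1604 genes with JAG1-Fc beads became 907 when only these 6 arrays were fitted and 968 with the _x_at and _s_at probe sets left out, and 897 to 1447 without 1 array at a time. It stayed within 1.5 times under centring (1382), repeated quantile normalization (2040), the mean of all probe sets (1428) and a trended, robust variance model (2088). Among genes above the median level alone the count was 2116. That setting and the one without _x_at and _s_at probe sets tested fewer genes. Their counts, here and for the differences from A13, are therefore shares of a smaller set. The 36 differences from A13 became 12 when only the 4 groups were fitted, 17 under centring, 22 with the mean of all probe sets, 8 without _x_at and _s_at probe sets, 73 among genes above the median level, 79 with the trended model, and 10 to 28 without 1 array. Of 113 named genes called with JAG1-Fc beads, 74 kept their call and direction under every setting, NRARP, OLFM4, MYC, AGR2 and CYP4Z1 among them; 36 lost the call in at least 1. Of 16 named differences 8 kept theirs.

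Signs turned without _x_at and _s_at probe sets for AKR1C2 (-0.0225), GAS1 (-0.0759), HES1 (-0.0756), IFI44 (0.0569), PPAT (-0.152) and TGFB1 (0.0562), and in the difference from A13 for AKR1C2 (-0.0161) and CXCL2 (0.285). That setting reads another probe set of the gene. Uncalled genes near 0 turned too. HEYL was at -0.0077 under centring and -0.0043 under quantile normalization, and at -0.0286 to 0.0427 without 1 array. DLL3 was at -0.0393 with the mean of all probe sets. Without 1 array DLL1 was at -0.1247 to 0.0442, HES7 at -0.1183 to 0.0079, DTX1 at -0.1018 to 0.0397 and NOTCH4 at -0.124 to 0.0899. The causes were not tested. With GTGGGAA in place of TGGGAA the share of promoters of rising genes was 5.23%, since the longer motif is rarer.

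No paired analysis was possible because the labels give no replicate numbers. With 3 arrays a group, a change of about 2 standard errors did not pass (HES4, 0.16 ± 0.08), so a change missing the threshold is not shown to be absent.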
